A study of Mus musculus with 1 sample.

Results

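Fibroblasts are the mesenchymal cells that lay down the fibrillar collagens and elastic fibres around pancreatic lobules, ducts and vessels. Elastic fibres consist of a core of elastin, the product of Eln, deposited on microfibrils of fibrillin, with fibulins and lysyl oxidases needed for their assembly. Mfap4 encodes a microfibril-associated glycoprotein that binds elastin and fibrillin, and Meox2 encodes a homeobox transcription factor of mesodermal tissues, and both belong to the set of 6 genes by which the fibroblasts described here were chosen.

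Mfap4 Meox2 fibroblasts comprised 1678 of the 10129 retained cells of the library, which is 16.6% (95% interval 15.8% to 17.3%), and 29.6% (28.4% to 30.8%) of the 5662 cells that passed the fibroblast gate. They were chosen by their own transcript counts. The gate required at least 10 UMIs (unique molecular identifiers, the tags by which single captured transcripts are told apart) of the collagen genes Col1a1 and Col3a1 together, none of the leukocyte gene Ptprc, none of the mesothelial genes Msln and Upk3b, and at most 1 of the proliferation genes Mki67, Top2a, Cenpf and Birc5. Members then needed at least 3 UMIs summed over Mfap4, Fmo2, Meox2, Hmcn2, Lsamp and Slit2 (sum B), and a sum B at least 2 times that of each of 2 other sets of 6 genes. The first of these sets was Rspo3, Adamtsl3, Cxcl14, Fgf10, Steap4 and Ms4a4d (sum A), and the other was Pcolce2, Efhd1, Efemp1, Pi16, Opcml and Adamts16 (sum C). The same rule with the sums exchanged gave 677 Rspo3 Cxcl14 fibroblasts and 1066 Pi16 Pcolce2 fibroblasts, and 2241 gated cells met none of the 3 rules.

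The study asked how loss of SCAP, the escort protein that lets sterol regulatory element binding proteins reach their activating proteases, alters the pancreas. Pancreata of 5 to 6 mice, 2 weeks old and of both sexes in equal number per the methods, were combined into the library, and all of these mice carried Scap alleles flanked by loxP sites (Scap f/f) and served as the wildtype arm. The Scap knockout library was not analysed here, so no value below is a difference between genotypes. All values come from 1 droplet library of 11789 barcodes and 51540177 UMIs, so there is no replicate, and the intervals cover counting error only. Levels are given in CPM, the UMIs of a gene per 1000000 UMIs pooled over all cells of a class. Members held 5242772 UMIs in all, with medians per cell of 2581 UMIs and 1361 genes, close to the 2655 UMIs of the Rspo3 Cxcl14 fibroblasts and below the 3495 UMIs of the Pi16 Pcolce2 fibroblasts.

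The 6 genes of sum B contributed unequally to the choice of members. Of the 18993 UMIs of sum B in members, Mfap4 gave 38.2%, Slit2, which encodes a secreted ligand of Robo receptors, 30.6%, and Lsamp, which encodes a cell adhesion protein of the IgLON family, 19.5%. Fmo2, a flavin-containing monooxygenase, gave 5.60%, Meox2 gave 3.66% and Hmcn2, an extracellular hemicentin, gave 2.37%. Sum B ranged from 3 to 91 UMIs per member with a median of 8, and 1116 members (66.5%) carried UMIs of 3 or more of the 6 genes. In 103 members the sum came from 1 gene alone, which was Mfap4 in 65, Slit2 in 28, Lsamp in 8 and Fmo2 in 2 of them. The medians of sum A and sum C over members were both 0, and 618 members (36.8%) had no UMI of either set.

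The genes that chose the cells showed the levels the rule demanded, and these are given as a description. Mfap4 stood at 1385 CPM (95% interval 1353 to 1417) in members, at 97.2 CPM in Rspo3 Cxcl14 fibroblasts and at 57.6 CPM in Pi16 Pcolce2 fibroblasts. It was detected in 88.3% of members, or 62.4% after every cell was thinned to 800 UMIs. Free transcripts in the droplets set a floor for such shares, which was read from 1384 cells with a Ptprc UMI, under 10 collagen UMIs and under 20% acinar UMIs. In these Ptprc cells, with a median of 1741 UMIs, the thinned share with Mfap4 was 0.650%. Meox2 stood at 133 CPM (95% interval 123 to 143) in members and at 3.12 CPM in Ptprc cells, and it was detected in 26.3% of members. After thinning it was detected in 10.01% of members and 0.145% of Ptprc cells. Most single members carried no Meox2 UMI at this depth. Since both genes of the label chose the members, their levels do not test it. Fmo2 was at 203 CPM, Hmcn2 at 85.8 CPM and Slit2 at 1108 CPM in members, against 2.18, 1.25 and 12.8 CPM in Ptprc cells. Members held UMIs of all 20 genes of a pan-fibroblast list, led by Col1a2. Such a count over pooled cells does not test identity, as members also held UMIs of all 19 genes of an acinar list. None of the 20 pan-fibroblast genes was past 2-fold from Rspo3 Cxcl14 fibroblasts in either direction (median ratio 0.976). Against Pi16 Pcolce2 fibroblasts, 1 of the 20 was higher, Pdgfrb, and 6 were lower, Dpt, Fbn1, Fndc1, Fn1, Thy1 and Cd34 (median ratio 0.878). Over all genes tested in that comparison, 8.60% were higher and 4.60% lower.

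On the mouse build GRCm38 (mm10), Mfap4 lies at chr11:61485431-61488900, Meox2 at chr12:37108540-37179534, Fmo2 at chr1:162874317-162898726, Hmcn2 at chr2:31314415-31460738, Lsamp at chr16:39984361-42181679 and Slit2 at chr5:47983138-48307733. The promoters of 2 of these genes are shown, Meox2 because it gives the class its name and Fmo2 because it divided the members, as described below. Both are RefSeq sequences of GRCm38.p6 running from 250 bases before to 50 after a RefSeq start of the gene, on the gene's own strand, from chr12:37108290-37108589 (plus strand) and chr1:162898709-162899008 (minus strand). Capitals mark matches, on either strand, to the TATA box core TATAAA, the GC box GGGCGG or the homeodomain core TAATTA.
Meox2: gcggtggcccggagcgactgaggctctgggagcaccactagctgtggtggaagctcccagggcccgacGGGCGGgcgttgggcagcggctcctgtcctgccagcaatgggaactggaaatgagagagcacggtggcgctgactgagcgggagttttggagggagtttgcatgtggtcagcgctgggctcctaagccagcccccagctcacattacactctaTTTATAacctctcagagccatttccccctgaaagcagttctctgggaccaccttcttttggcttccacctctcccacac
Fmo2: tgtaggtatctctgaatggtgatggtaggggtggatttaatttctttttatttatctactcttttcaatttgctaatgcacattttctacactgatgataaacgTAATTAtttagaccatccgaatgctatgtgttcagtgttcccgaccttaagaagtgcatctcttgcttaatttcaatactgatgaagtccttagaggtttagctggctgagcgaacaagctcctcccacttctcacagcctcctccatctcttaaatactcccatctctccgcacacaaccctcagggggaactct
The Meox2 window held 1 match to TATAAA and 1 to GGGCGG, motifs found in 13.6% and 35.7% of the 32851 promoters of the table, and its GC content was 60.7%. The Fmo2 window held neither of those motifs, held 1 match to TAATTA, a motif found in 5.29% of promoters, and had a GC content of 41.3%. For Fmo2 the table holds a second start as well, and the start used here lies upstream of the gene span given above. The window of the other start, chr1:162898444-162898743, held none of the 3 motifs and had a GC content of 47.7%. The matches describe letters only and were not related to the counts.

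Each of the 6 genes was also left out of sum B in turn, cells were chosen by the remaining 5, and the level of the left-out gene was read. All 6 genes were higher in the cells so chosen than in the Rspo3 Cxcl14 and Pi16 Pcolce2 fibroblasts pooled. Those 2 classes were also chosen anew without the left-out gene. The cells chosen by the remaining 5 genes were all members. The 6 genes had been put together with results of these data known, so the ratios are a description. The ratio was 12.6-fold (95% interval 9.13 to 17.96) for Hmcn2, the least abundant of the set, where cells chosen without it held 80.5 CPM and the other classes 6.37 CPM. It was 8.25-fold (95% interval 6.64 to 10.4) for Meox2, at 123 against 14.9 CPM. Mfap4 was 7.48-fold (95% interval 7.02 to 7.99) and Fmo2 6.07-fold (95% interval 5.21 to 7.11) higher. Lsamp was 6.01-fold (95% interval 5.54 to 6.53) higher, with an interval that overlapped that of Fmo2. The lowest ratio was that of Slit2, at 4.07-fold (95% interval 3.86 to 4.30). Slit2 was at 432 CPM, Mfap4 at 250.4 CPM and Lsamp at 143 CPM in Rspo3 Cxcl14 fibroblasts chosen without them.

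**Figure D1:**
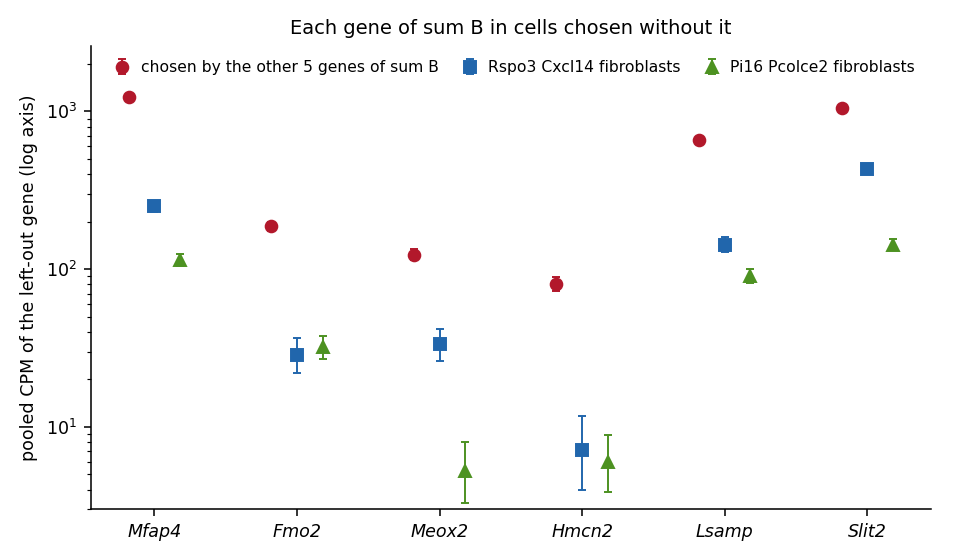
Pooled CPM on a log axis of each gene of sum B in cells chosen by the other 5 genes of sum B (circles), in Rspo3 Cxcl14 fibroblasts (squares) and in Pi16 Pcolce2 fibroblasts (triangles), with exact 95% Poisson intervals that are mostly smaller than the symbols. Squares and triangles are classes chosen anew without the left-out gene, so their levels differ from those of the full rule, where Slit2 was at 226 and 107 CPM. For every gene the circle lies above the square and the triangle, with the smallest gap for Slit2 at 1057, 432 and 143 CPM.

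Members fell into 2 main groups that differed in Fmo2. All gated fibroblasts were clustered without the genes of the rule, the mitochondrial genes and the sex-linked genes, which gave 14 clusters. Cluster 3, with 860 cells, held 652 members (38.9%), and cluster 5, with 663 cells, held 544 (32.4%), so that 71.3% of members lay in these 2. Cluster 3 was led by Slc26a7, an anion transporter, Kcnd2, a voltage-gated potassium channel, and Inhba, the activin A subunit. Cluster 5 was led by the cadherin gene Cdh12, Shisa3, the BMP antagonist Grem1, Hhip, the binding inhibitor of hedgehog ligands, and Eln. These leading genes define the clusters and are not tested results. A further 313 members (18.7%) were spread over the 4 other fibroblast clusters, and 169 (10.1%) lay in 8 clusters led by markers of other cell types.

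The genes of sum B did not enter the clustering, but they were counted in the clustered cells, and their levels are given as a description with counting intervals. Fmo2 was 27.8-fold higher (95% interval 19.8 to 40.5) in members of cluster 5, with 484 CPM, than in members of cluster 3, with 17.4 CPM. The level in cluster 3 was close to the 18.1 and 17.3 CPM of the other 2 classes. Fmo2 UMIs were found in 49.6% of members in cluster 5 and in 4.45% of those in cluster 3, or in 26.7% and 1.84% after thinning. Over all cells of the clusters, members or not, the levels were 439.6 and 16.4 CPM.

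The other 5 genes were present in both groups and differed less. Meox2 was 1.80-fold (95% interval 1.52 to 2.13) and Mfap4 1.68-fold (1.59 to 1.77) higher in cluster 5. Hmcn2 went the other way and was 1.92-fold (95% interval 1.54 to 2.40) higher in cluster 3, and Slit2 was 1.38-fold (1.30 to 1.46) higher there. Lsamp was nearly even, at 859 CPM in cluster 3 and 771 CPM in cluster 5.

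**Figure D2:**
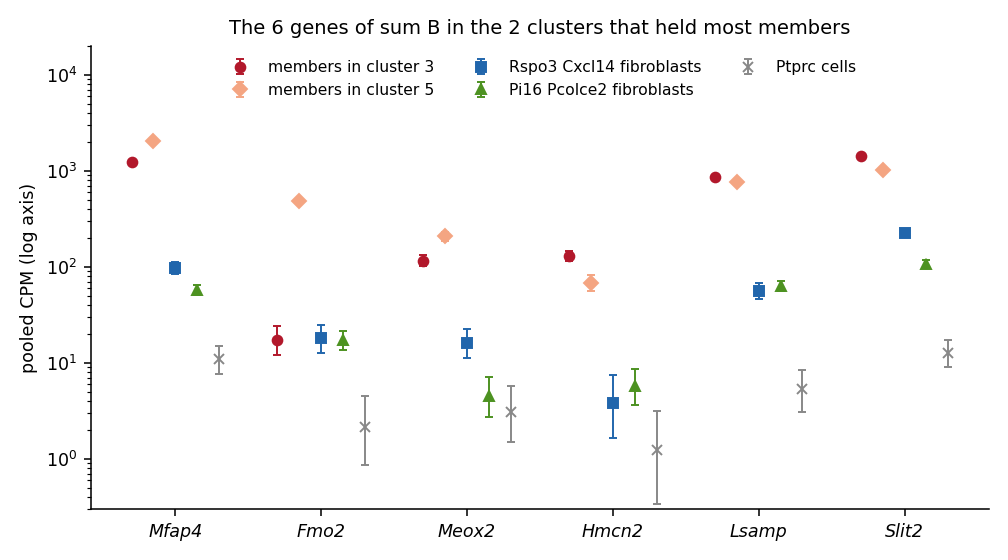
Pooled CPM on a log axis of the 6 genes of sum B in members of cluster 3 (circles), members of cluster 5 (diamonds), Rspo3 Cxcl14 fibroblasts (squares), Pi16 Pcolce2 fibroblasts (triangles) and Ptprc cells (crosses), with exact 95% Poisson intervals. Members of both clusters lie above the other classes for 5 genes, and for Fmo2 members of cluster 3 (17.4 CPM) lie with the other classes while those of cluster 5 stand at 484 CPM.

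The gate genes differed as well. Col1a1 was at 26251 CPM in members of cluster 5 and 11185 CPM in those of cluster 3, and Col3a1 at 33078 and 16614 CPM. Pi16, a gene of sum C, was at 125 CPM in members of cluster 5 and 11.2 CPM in those of cluster 3. Pcolce2, which enhances procollagen processing, was at 81.2 and 3.06 CPM, against 273 CPM in Pi16 Pcolce2 fibroblasts. Among genes that did enter the clustering, Eln stood at 6524 CPM in cluster 5 and 940.4 CPM in cluster 3, Mgp at 3407 and 1595 CPM, and Fn1, fibronectin, at 507 and 141 CPM, given as a description. Median depth was 2722 UMIs in cluster 5 and 2479 UMIs in cluster 3.

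Sum B had no gap at the threshold of the rule. At 3 UMIs, 161 members had a sum B of 3, and 195 gated cells that met the other conditions had a sum B of 2. Eln was at 1423 CPM in the former and 864 CPM in the latter, Mgp at 1557 and 978 CPM, and Mamdc2, which encodes a MAM domain protein, at 89.1 and 31.8 CPM. H19, an imprinted RNA of growing tissues, was at 2824 CPM just inside and 3047 CPM just outside. On the other threshold, 237 members would have left the class with 1 more UMI of the larger of sums A and C, and 183 cells outside would have entered with 1 fewer. Eln was at 1769 CPM in the former and 962 CPM in the latter.

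Eln and Mgp were higher, and H19, Dlk1 and Ly6c1 lower, in members with a larger sum B, which is the measure that chose them. Eln stood at 1420 CPM in the 501 members with a sum of 3 to 5, at 1659 CPM in the 567 with 6 to 10, at 2834 CPM in the 400 with 11 to 20 and at 6569 CPM in the 210 with 21 or more. Mgp, matrix Gla protein, an inhibitor of calcification, went from 1439 to 2948 CPM over the same groups. H19 went down from 2673 to 885 CPM, and Dlk1, an imprinted gene of immature mesenchyme, from 948 to 271 CPM. Ly6c1, a surface protein of Pi16-type fibroblasts, was at 78.2 CPM in the lowest group and 25.7 CPM in the highest. Bgn, biglycan, was also higher from group to group, from 893 to 1365 CPM, and Igf2 and Acta2 lower, from 1395 to 552 CPM and from 482 to 143 CPM. Some genes had no steady order over the 4 groups, with Fn1 at 469, 376, 407 and 417 CPM, Mamdc2 at 88.5, 104, 147 and 128 CPM and Cdkn1c at 443, 297, 345 and 267 CPM. Median depth moved with sum B, from 1881 to 5645 UMIs per cell, as did the share of members in cluster 5, from 18.6% to 58.6%, and the share in clusters led by other cell types, from 14.6% to 1.43%, and their part in these values was not tested.

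**Figure D3:**
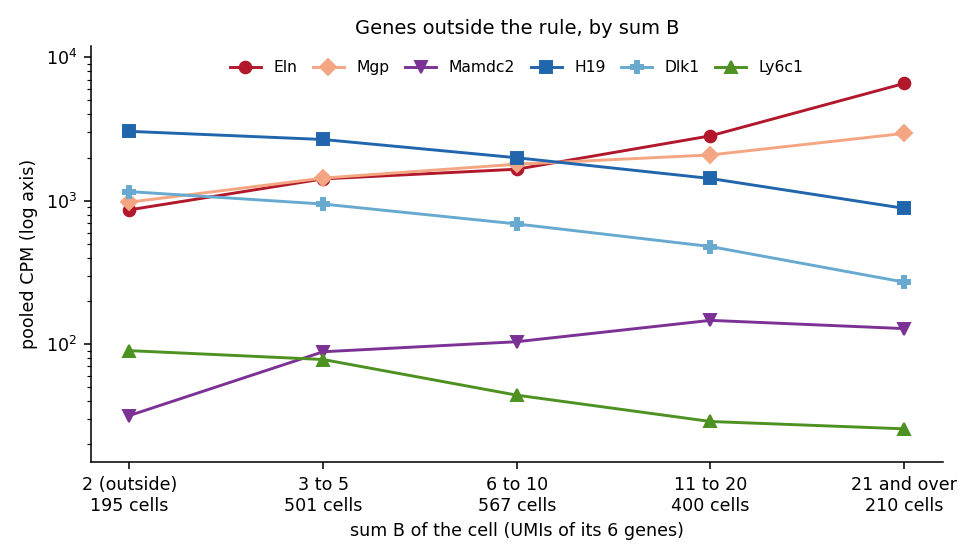
Pooled CPM on a log axis of 6 genes outside the rule, by the sum B of the cell, for 195 cells just outside the threshold (sum B of 2) and for members in 4 groups of sum B, with the number of cells under each. Eln reaches 6569 CPM and Mgp 2948 CPM in the highest group, while H19, Dlk1 and Ly6c1 are lowest there at 885, 271 and 25.7 CPM.

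Compared with Rspo3 Cxcl14 fibroblasts, members were high in Eln and low in Ifi205, an interferon-inducible gene. Of 9992 genes tested outside the rule, 509 were at least 2-fold higher in members (5.09%) and 218 at least 2-fold lower (2.18%), with a median ratio over all tested genes of 0.993. Genes of the rule were left out, but the classes were cut from the same cells and library, so the ratios carry no p-value. Eln was 17.99-fold (95% interval 16.2 to 20.03) higher, at 3067 CPM in members and 171 CPM in Rspo3 Cxcl14 fibroblasts, and was detected in 78.2% and 36.3% of cells. In Ptprc cells Eln stood at 70.2 CPM. Of the UMIs of Eln in members, 12.4% came from clusters led by other cell types, and without those clusters the ratio was 18.4-fold. The ratio was 26.5-fold among cells with Xist and no Y-linked UMIs and 9.32-fold among cells with Y-linked and no Xist UMIs.

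Kcnd2 was 72.1-fold (95% interval 12.8 to 2863) and its channel-interacting partner Kcnip1 46.3-fold (95% interval 12.7 to 384) higher, on 1 and 2 UMIs in the other class. Art4, an ADP-ribosyltransferase, had 104 UMIs in members and none in Rspo3 Cxcl14 fibroblasts, and was at least 13.9-fold higher when the latter were set at 3 UMIs for the class. Prss35, a secreted serine protease homologue, and Plcxd3 were likewise at 0 there, with bounds of 10.7-fold and 10.4-fold. A single cell gave 24.4% of the Plcxd3 UMIs. Ccn2, connective tissue growth factor, was 22.3-fold (95% interval 9.46 to 69.4) and Csmd3 31.2-fold (95% interval 8.50 to 260.2) higher. Among cells with Xist and no Y-linked UMIs Ccn2 was 26.2-fold higher, and among cells with Y-linked and no Xist UMIs 8.10-fold.

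Acta2, smooth muscle actin, was 14.3-fold (95% interval 10.3 to 20.5) and Tagln, transgelin, 14.1-fold (95% interval 9.33 to 22.4) higher than in Rspo3 Cxcl14 fibroblasts, but few cells carried most of both. The 18 members in cluster 12, which was led by the smooth muscle genes Actg2 and Myh11, held 58.0% of the Acta2 and 61.5% of the Tagln UMIs of the class. Without the clusters led by other cell types the ratios were 9.99-fold and 9.14-fold. The level of Acta2 was 166 CPM in members of cluster 3 and 79.5 CPM in those of cluster 5, with 17.1 CPM in Rspo3 Cxcl14 fibroblasts and 50.8 CPM in Ptprc cells.

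Of the genes lower in members than in Rspo3 Cxcl14 fibroblasts, Ifi205 was 12.7-fold (95% interval 7.92 to 21.4) lower, at 4.01 against 50.97 CPM, and the related genes Ifi207 and Ifi211 were 5.91-fold and 5.34-fold lower. Tll1, a tolloid-like metalloprotease, was 16.2-fold (95% interval 7.66 to 39.6) lower, on 8 UMIs in members. Of these UMIs 50% lay in clusters led by other cell types, and without those clusters Tll1 was 30.1-fold lower, while it was 7.56-fold lower among cells with Xist and no Y-linked UMIs and 25.2-fold lower among cells with Y-linked and no Xist UMIs. Aldh1a2, which makes retinoic acid from retinaldehyde, was 4.72-fold (95% interval 3.53 to 6.36) lower and Avpr1a, the vasopressin receptor V1a, 5.12-fold (95% interval 3.48 to 7.63) lower. Peg10, an imprinted gene derived from a retroelement, P2ry14, the receptor of UDP-glucose, Smpd3, neutral sphingomyelinase 2, and Thsd7a were 4.71-fold, 5.36-fold, 6.02-fold and 5.62-fold lower. Ifi205, Ifi207 and P2ry14 were at or under the level of Ptprc cells in members, at 4.01, 5.72 and 7.82 CPM against 4.37, 9.67 and 17.2 CPM.

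The contrast with Pi16 Pcolce2 fibroblasts was wider. Of 10503 tested genes, 903 were at least 2-fold higher in members (8.60%) and 483 at least 2-fold lower (4.60%), with a median ratio of 1.05. Mgp was 22.3-fold (95% interval 20.2 to 24.8) higher, at 2069.7 CPM in members and 92.6 CPM in Pi16 Pcolce2 fibroblasts, and was detected in 82.00% and 20.5% of cells. Mamdc2 was 49.3-fold (95% interval 26.6 to 103) higher.

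Several adhesion and signal genes were near 0 in Pi16 Pcolce2 fibroblasts. Itga8, the integrin subunit that binds nephronectin, was 30.5-fold (95% interval 14.6 to 76.7) higher in members, and Npnt, which encodes nephronectin, was 3.93-fold (95% interval 2.38 to 6.82) higher. Ccl19, a chemokine for lymphocytes and dendritic cells, was 116-fold (95% interval 20.5 to 4614) higher, with 1 UMI in the other class. Of the Ccl19 UMIs in members, 30.8% came from clusters led by other cell types. Cdh18 and Fat3, both of the cadherin superfamily, were 142-fold and 52.2-fold higher on 1 and 3 UMIs in the other class, with lower interval ends of 25.2 and 17.6. Chodl, a membrane lectin, was 33.1-fold higher, with 250 UMIs in members and 6 in the other class. Gabrb1, a subunit of the GABA type A receptor, had no UMI in Pi16 Pcolce2 fibroblasts and was at least 18.5-fold higher, and 20% of its 70 UMIs came from 1 cell. Art4 had 1 UMI there and was 82.7-fold (95% interval 14.5 to 3296) higher.

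Genes low in members against Pi16 Pcolce2 fibroblasts included secreted growth factors and enzymes. Bmp7 was 33.3-fold (95% interval 17.2 to 73.7) and Wnt10b 35.6-fold (95% interval 16.95 to 89.7) lower in members, on 9 and 7 UMIs, and Edn1, endothelin 1, was 24.5-fold (95% interval 16.7 to 37.6) lower. Of the Bmp7 UMIs in members 44.4% came from clusters led by other cell types, and without those clusters Bmp7 was 55.6-fold lower. It was 41.6-fold lower among cells with Xist and no Y-linked UMIs and 77.3-fold lower among cells with Y-linked and no Xist UMIs. Ednra, the receptor of endothelin 1, stood the other way at 14.2-fold (95% interval 9.27 to 22.97) higher in members. Akr1c18, the 20-alpha-hydroxysteroid dehydrogenase that inactivates progesterone, and Ptx3, a pentraxin of innate immunity, each had 3 UMIs in members and were 96.5-fold and 71.7-fold lower, with intervals of 32.6 to 471 and 24.1 to 351. Pla1a, a phosphatidylserine phospholipase, was 42.4-fold (95% interval 23.4 to 85.8) and Smpd3 22.05-fold (95% interval 17.8 to 27.6) lower. Gap43, Dync1i1 and Cmah were 23.8-fold, 42.4-fold and 22.1-fold lower. Cmah was at 215 CPM in Ptprc cells, above the 177 CPM of Pi16 Pcolce2 fibroblasts, and was 15.3-fold lower in members among cells with Xist and no Y-linked UMIs and 65.3-fold lower among cells with Y-linked and no Xist UMIs.

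**Figure D4:**
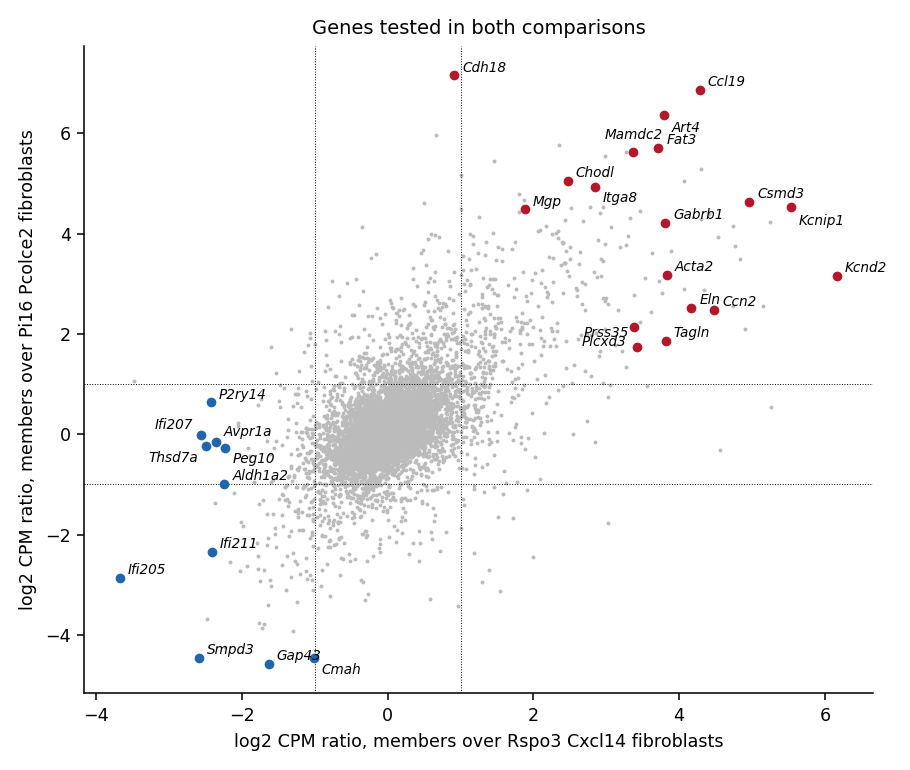
Log2 ratio of pooled CPM for genes tested in both comparisons, members over Rspo3 Cxcl14 fibroblasts on the horizontal axis and members over Pi16 Pcolce2 fibroblasts on the vertical axis, with dotted lines at 2-fold, the named genes reported here marked and genes with no UMI in the other class drawn at their bound. The 2 comparisons share the members, so the axes are not independent. Kcnd2 lies farthest right at 72.1-fold and Cdh18 highest at 142-fold among the named genes.

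Against all 3984 other gated fibroblasts, 495 of 11868 tested genes were at least 2-fold higher in members (4.17%) and 447 at least 2-fold lower (3.77%). By the lower end of the interval Art4 led at 35.6-fold (95% interval 16.7 to 90.8), followed by Mamdc2 at 10.4-fold (95% interval 8.65 to 12.6) and Ccl19 at 12.5-fold (95% interval 8.30 to 19.5). Ccl19 was 34.6-fold higher among cells with Xist and no Y-linked UMIs and 4.77-fold higher among cells with Y-linked and no Xist UMIs. Grem1, which binds and blocks BMP ligands, was 15.5-fold (95% interval 8.15 to 32.4) higher on 71 UMIs in members, and it was carried by cluster 5 at 33.4 CPM against 1.53 CPM in cluster 3. Csmd3, Fat3, Kcnd2 and Kcnip1 were 9.08-fold to 10.4-fold higher, and Cntn6, a neural adhesion gene, was 13.9-fold (95% interval 7.05 to 30.5) higher. The lowest ratios were those of Akr1c18 and Ptx3, each with 3 UMIs in members, at 33.8-fold (95% interval 11.4 to 165) and 31.8-fold (95% interval 10.8 to 156) lower. Gcg, the glucagon gene of islets, was 18.1-fold lower, but 1 cell held 95.7% of its UMIs in the other gated fibroblasts, and its direction turned, to a log2 ratio of 0.28 without doublets and 0.41 without clusters led by other cell types. Lrrn4cl was 9.74-fold (95% interval 7.38 to 13.1) lower, and Smpd3, Gap43, Cmah, Pla1a, Dync1i1 and Bmp7 were 9.30-fold to 16.7-fold lower. In cells with Xist and no Y-linked UMIs Lrrn4cl was 8.27-fold lower, and in cells with Y-linked and no Xist UMIs 23.4-fold.

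Among genes of elastic fibres and microfibrils, Eln and Lox were past 2-fold higher in members in both contrasts. Of all tested genes, 5.09% were higher and 2.18% lower against Rspo3 Cxcl14 fibroblasts and 8.60% and 4.60% against Pi16 Pcolce2 fibroblasts. Against Rspo3 Cxcl14 fibroblasts, 3 of the 21 tested genes of the list were past 2-fold higher and 1 was lower, with a list median of 1.07. The 3 were Eln, Lox, the lysyl oxidase that crosslinks elastin, at 2.60-fold (95% interval 2.27 to 2.996), and Fbln5, the fibulin that tethers elastin to cells, at 2.11-fold (95% interval 1.90 to 2.36). Against Pi16 Pcolce2 fibroblasts, 4 of 21 were higher and 6 lower, with a median of 1.02. Eln was 5.71-fold (95% interval 5.46 to 5.97), Lox 2.75-fold, Fbln1 3.38-fold and Emilin1 3.14-fold higher. The Eln ratio was 7.48-fold among cells with Xist and no Y-linked UMIs and 3.39-fold among cells with Y-linked and no Xist UMIs, and members of cluster 3 were at 940.4 CPM against 537 CPM in Pi16 Pcolce2 fibroblasts. Fbn1, fibrillin 1, was 4.14-fold (95% interval 4.01 to 4.28) and Mfap5, a fibrillin-binding microfibril protein, 3.80-fold (95% interval 3.66 to 3.94) lower. Fbn2, fibrillin 2, and Mfap2 differed by less than 2-fold, at ratios of 1.17 and 1.03. Of the other lysyl oxidase genes, Loxl2 stood at ratios of 0.537 and 0.465 to the 2 classes and Loxl3 at 0.673 and 0.735. Loxl1 went with Lox against Rspo3 Cxcl14 fibroblasts, though under 2-fold at 1.68, and stood at 0.807 to Pi16 Pcolce2 fibroblasts.

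Among small proteoglycans and matricellular genes, single genes were many-fold higher in members. Of 24 tested genes, 6 were higher and 1 lower against Rspo3 Cxcl14 fibroblasts (median 1.21), and 8 were higher and 3 lower against Pi16 Pcolce2 fibroblasts (median 1.36). Over all tested genes 5.09% were higher and 2.18% lower in the first comparison and 8.60% and 4.60% in the second. The summed level of the list was 21000 CPM in members, 19397 CPM in Rspo3 Cxcl14 fibroblasts and 21912 CPM in Pi16 Pcolce2 fibroblasts. Bgn, biglycan, was 3.60-fold (95% interval 3.32 to 3.91) and 5.32-fold (95% interval 4.96 to 5.73) higher, at 1102 CPM in members. Tnc, tenascin C, was 7.53-fold and 21.3-fold higher, Cilp 6.83-fold and 23.05-fold higher, and Fmod, fibromodulin, 16.7-fold and 33.1-fold higher. The abundant Dcn, decorin, and Lum, lumican, were nearly level, at ratios of 0.856 and 1.15 against Rspo3 Cxcl14 fibroblasts. Thbs1, thrombospondin 1, was the gene of the list that was lower there, at 2.13-fold (95% interval 2.03 to 2.23).

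Among collagens, Col4a5 and Col4a6 were past 2-fold higher in members in both contrasts. Against Rspo3 Cxcl14 fibroblasts 4 of 20 tested collagen genes were higher and 1 lower (median 0.804), and against Pi16 Pcolce2 fibroblasts 8 of 22 were higher and 1 lower (median 1.27). Without clusters led by other cell types, 3 of 19 were higher and 2 lower against Rspo3 Cxcl14 fibroblasts (median 0.805). All tested genes were 5.09% higher and 2.18% lower in the first contrast and 8.60% and 4.60% in the second. Without those clusters, 443 of 9565 were higher and 221 lower in the first. Col4a5 and Col4a6, chains of basement membrane collagen, were 4.46-fold and 6.25-fold higher than in Rspo3 Cxcl14 fibroblasts and 2.27-fold and 12.4-fold higher than in Pi16 Pcolce2 fibroblasts. Col15a1 stood at 886 CPM in members, 1115 CPM in Rspo3 Cxcl14 fibroblasts and 123 CPM in Pi16 Pcolce2 fibroblasts. Col5a3 was lower in members in both contrasts, at 2.56-fold and 2.54-fold.

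Ligands, antagonists and targets of the TGF-beta and BMP pathway were higher in members than in Rspo3 Cxcl14 fibroblasts for 14 of 28 tested genes and lower for 1 (median 2.01). Without clusters led by other cell types, 12 of 26 were higher and 1 lower (median 1.60). Of all tested genes, 5.09% were higher and 2.18% lower in this contrast, or 443 and 221 of 9565 without those clusters. Inhba was 12.3-fold (95% interval 6.15 to 28.8) higher, Tgfb3, a TGF-beta ligand, 2.62-fold (95% interval 1.99 to 3.50) and Tgfbi, a secreted protein induced by TGF-beta, 7.14-fold (95% interval 4.73 to 11.3) higher. The BMP antagonist Grem1 was 28.4-fold (95% interval 4.94 to 1139) higher, on 1 UMI in the other class. The target genes Id1, Id3 and Smad7 were 2.62-fold, 2.36-fold and 2.53-fold higher. Bmper, a modulator of BMP signals, was 3.95-fold (95% interval 2.79 to 5.64) lower.

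Against Pi16 Pcolce2 fibroblasts the same list was split, with 10 of 30 genes higher and 9 lower (median 1.42), where 8.60% and 4.60% of all tested genes were. Inhba, Tgfbi and Tgfb3 were 12.2-fold, 9.45-fold and 3.47-fold higher. Bmp7, Bmp2 and the antagonist Chrdl1 were 33.3-fold, 4.44-fold and 7.70-fold lower. Within members, Inhba was at 104 CPM in cluster 3 and 9.21 CPM in cluster 5.

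Slit2 signals through Robo receptors. Robo1 was 2.13-fold (95% interval 1.84 to 2.46) lower in members than in Rspo3 Cxcl14 fibroblasts and Robo2 stood at a ratio of 0.594. Against Pi16 Pcolce2 fibroblasts Robo2 was 1.86-fold (95% interval 1.68 to 2.07) higher and Robo1 stood at a ratio of 0.981. Slit3, another Slit ligand, stood at ratios of 0.667 and 0.718 against the 2 classes. Of the guidance list, 4 of 22 tested genes were higher and 2 lower against Rspo3 Cxcl14 fibroblasts (median 1.09), and 9 of 24 were higher and 9 lower against Pi16 Pcolce2 fibroblasts (median 0.817). By comparison, 5.09% of all tested genes were higher and 2.18% lower against the first class, and 8.60% and 4.60% against the second. Epha3, an ephrin receptor, was 2.23-fold (95% interval 2.04 to 2.44) and 3.99-fold (95% interval 3.67 to 4.35) higher in members, and Unc5b, a netrin receptor, 4.50-fold and 17.9-fold higher. The semaphorins Sema3c and Sema3e were 6.04-fold and 7.55-fold lower than in Pi16 Pcolce2 fibroblasts. Ntm and Negr1, relatives of Lsamp, and Fmo1, a relative of Fmo2, were not past 2-fold from Rspo3 Cxcl14 fibroblasts, with ratios of 0.637, 0.732 and 0.919. Against Pi16 Pcolce2 fibroblasts Ntm was 4.48-fold (95% interval 2.34 to 9.43) and Fmo1 2.58-fold (95% interval 2.17 to 3.08) higher, and Negr1 stood at a ratio of 1.24.

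Growth factor and vasoactive receptor genes also differed between the classes. Against Rspo3 Cxcl14 fibroblasts 5.09% of all tested genes were higher and 2.18% lower, and against Pi16 Pcolce2 fibroblasts 8.60% and 4.60%. Of the vasoactive list, 6 of 15 tested genes were higher and 3 lower against Rspo3 Cxcl14 fibroblasts (median 1.03), and 7 of 16 were higher and 4 lower against Pi16 Pcolce2 fibroblasts (median 1.77). Of the PDGF list, 3 of 5 tested genes were higher against Rspo3 Cxcl14 fibroblasts and none lower, and 3 of 6 were higher against Pi16 Pcolce2 fibroblasts and none lower. Without clusters led by other cell types, 1 of 6 was lower against Pi16 Pcolce2 fibroblasts, and Pdgfc stood at a ratio of 0.407. Of all genes tested without those clusters, 510 of 10129 were lower against that class. Pdgfa, a ligand of the PDGF receptor alpha, was 4.78-fold (95% interval 2.82 to 8.72) and 6.19-fold (95% interval 3.99 to 10.01) higher. Npr3, the clearance receptor of natriuretic peptides, was 7.59-fold (95% interval 4.84 to 12.6) and 8.86-fold (95% interval 6.23 to 12.98) higher, and Ednra 3.36-fold and 14.2-fold higher. Hgf, hepatocyte growth factor, stood at a ratio of 1.10 (95% interval 0.885 to 1.37) to Rspo3 Cxcl14 fibroblasts and was 5.35-fold (95% interval 3.94 to 7.40) higher than in Pi16 Pcolce2 fibroblasts. In the FGF and HGF list, none of 12 tested genes was higher and 1 was lower against the former class. Against the latter, 3 of 14 were higher and 4 lower. Sfrp1, a secreted Wnt antagonist, was 2.18-fold and 5.43-fold higher. The Wnt list had 4 of 14 genes higher and 1 lower against Rspo3 Cxcl14 fibroblasts, and 3 of 18 higher and 6 lower against Pi16 Pcolce2 fibroblasts.

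Of 38 tested mesenchymal transcription factors, 6 were higher and 2 lower against Rspo3 Cxcl14 fibroblasts (median 1.08), and 8 were higher and 2 lower against Pi16 Pcolce2 fibroblasts (median 1.20). The shares over all tested genes were 5.09% higher and 2.18% lower in the first comparison and 8.60% and 4.60% in the second. Foxp2 was 3.77-fold (95% interval 2.75 to 5.29) and 6.31-fold (95% interval 4.71 to 8.62) higher, and Tbx3, a T-box repressor, 3.57-fold and 2.63-fold higher. Runx2, known for its part in bone formation, was 2.65-fold and 8.54-fold higher at 16.4 CPM. Ptprc cells held 82.6 CPM of Runx2, more than members or either other fibroblast class, so that level sets no floor for this gene. Tbx3, Runx1 and Runx2 were higher in members of cluster 3, at 41.9, 50.1 and 31.2 CPM, than of cluster 5, at 5.18, 8.64 and 7.49 CPM, and Foxp2 was higher in cluster 5, at 138 against 44.4 CPM. Meox1, the paralogue of Meox2, had few UMIs, at 5.15 CPM in members.

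Genes of the Pi16-type adventitial fibroblast were low in members. All 14 tested genes of that list were past 2-fold lower against Pi16 Pcolce2 fibroblasts (median 0.141) and 6 of 13 against Rspo3 Cxcl14 fibroblasts (median 0.549), with none higher in either. Of all tested genes, 4.60% were lower in the first of these contrasts and 2.18% in the second. Without clusters led by other cell types, 13 of 14 and 6 of 13 were lower, with Dpt at a ratio of 0.503 in the first contrast. Of all genes tested without those clusters, 510 of 10129 and 221 of 9565 were lower. The list names markers of Pi16 Pcolce2 fibroblasts, so its direction against them follows from the choice of that class. Against that class Dpp4, the surface peptidase CD26, was 14.6-fold (95% interval 12.3 to 17.5) lower, and Tek, the angiopoietin receptor, 15.1-fold (95% interval 12.1 to 18.96) lower. Fn1 was 9.33-fold (95% interval 8.92 to 9.76) lower than in Pi16 Pcolce2 fibroblasts, at 413 against 3852 CPM.

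Imprinted growth genes were lower in members than in Rspo3 Cxcl14 fibroblasts for 6 of the 12 tested (median 0.464), and for 3 of 12 against Pi16 Pcolce2 fibroblasts (median 1.00), with none higher. The shares of all tested genes that were lower were 2.18% and 4.60%. H19 was 2.92-fold (95% interval 2.84 to 3.004) lower than in the former and 3.99-fold (95% interval 3.90 to 4.09) lower than in the latter. Igf2, the fetal insulin-like growth factor, was 2.72-fold and 2.28-fold lower and Cdkn1c, an inhibitor of cyclin-dependent kinases, 2.97-fold and 3.02-fold lower. Dlk1 was 3.43-fold (95% interval 3.27 to 3.60) lower than in Rspo3 Cxcl14 fibroblasts, while against Pi16 Pcolce2 fibroblasts it stood 1.49-fold (95% interval 1.40 to 1.58) higher.

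A list of 26 SCAP and SREBP genes, the pathway on which the study turned, summed to 971 CPM in members. The sums were 1244 CPM in Rspo3 Cxcl14 fibroblasts and 1294 CPM in Pi16 Pcolce2 fibroblasts. Their level in Ptprc cells is not given here, so no floor is set for them. Scap stood at 24.8 CPM in members, 27.2 CPM in Rspo3 Cxcl14 fibroblasts and 27.8 CPM in Pi16 Pcolce2 fibroblasts, with a ratio of 0.913 (95% interval 0.664 to 1.27) to Rspo3 Cxcl14 fibroblasts. Of 24 tested genes of the list none was past 2-fold higher in either contrast, 2 were lower against Rspo3 Cxcl14 fibroblasts (median 0.764) and 4 against Pi16 Pcolce2 fibroblasts (median 0.685), where 2.18% and 4.60% of all tested genes were lower. Without clusters led by other cell types, 4 and 5 of the 24 were lower, as were 221 of 9565 and 510 of 10129 of all tested genes. Sqle, squalene epoxidase, was 3.27-fold (95% interval 2.27 to 4.73) and Scd1, stearoyl-CoA desaturase 1, 2.12-fold (95% interval 1.63 to 2.77) lower than in Rspo3 Cxcl14 fibroblasts. Hmgcs1, which makes HMG-CoA for sterol synthesis, was at 50.7 CPM in members against 92.9 and 90.7 CPM.

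Of 15 tested chemokine and cytokine genes, 1 was higher and 5 were lower in members than in Rspo3 Cxcl14 fibroblasts (median 0.804). All tested genes were 5.09% higher and 2.18% lower there, and 443 and 221 of 9565 without clusters led by other cell types. Without those clusters 1 of 12 genes of the list was higher and 2 were lower (median 0.857). Leaving those clusters out removed 169 members and 45 Rspo3 Cxcl14 fibroblasts, and the ratio of Cxcl13 went from 0.0893 to 0.831. Its level was then 3.88 CPM in members and 4.67 CPM in Rspo3 Cxcl14 fibroblasts. Of its member UMIs, 82.9% had lain in those clusters, so the ratio rose through the loss of Cxcl13 UMIs from the other class. Cxcl12, the ligand of CXCR4, was at 399 CPM in members and 3.64-fold (95% interval 3.29 to 4.04) higher than in Pi16 Pcolce2 fibroblasts. Ccl2 and Ccl7, which recruit monocytes, were 6.48-fold and 4.71-fold lower than in that class. Against it, 5 of 16 tested genes of the list were higher and 5 lower, or 4 and 7 without clusters led by other cell types. In that comparison 8.60% of all tested genes were higher and 4.60% lower, or 804 and 510 of 10129 without those clusters. Of 11 tested complement genes, 3 were higher and 1 lower against Rspo3 Cxcl14 fibroblasts (median 1.35). Masp1, a protease of the lectin pathway, had no UMI in Rspo3 Cxcl14 fibroblasts and stood at 28.6 CPM in members of cluster 3 and 0.576 CPM in those of cluster 5.

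**Figure D5:**
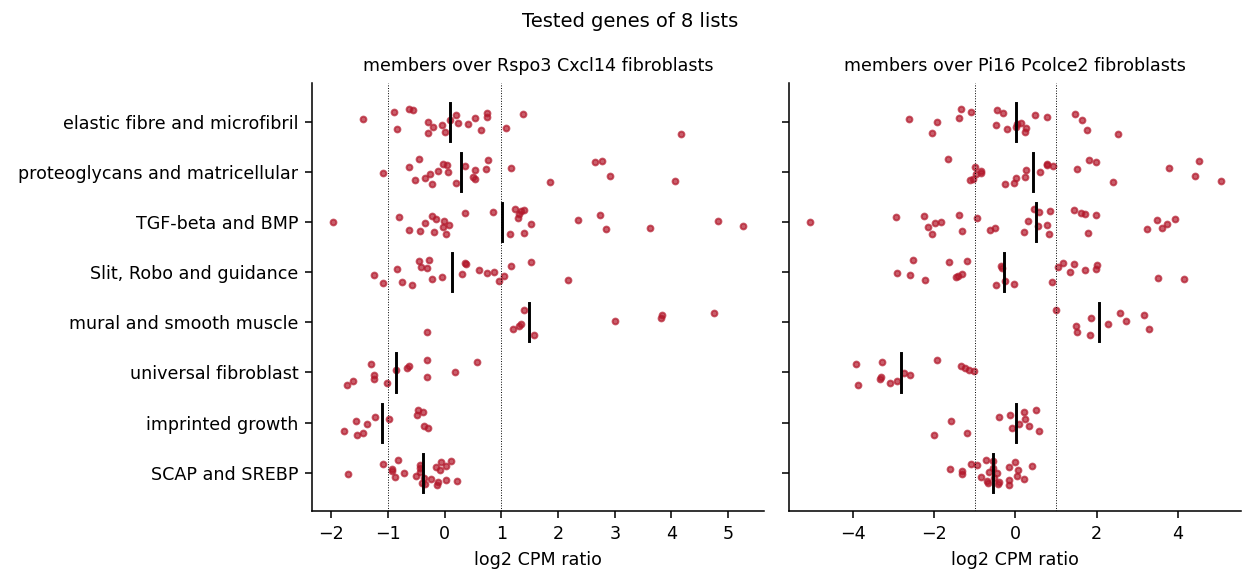
Log2 ratio of pooled CPM of each tested gene in 8 gene lists, members over Rspo3 Cxcl14 fibroblasts on the left and members over Pi16 Pcolce2 fibroblasts on the right; each point is a gene, the black bar is the list median, dotted lines mark 2-fold, and genes with no UMI in the other class are drawn at their bound. The adventitial list (universal fibroblast) has all 14 genes below the lower line on the right, and the TGF-beta and BMP list has its median near the upper line on the left, at a ratio of 2.01.

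Markers of other cell types were counted in members to see what else the gate had let in. The mural and smooth muscle list had a summed level of 833 CPM in members against 193 and 165 CPM in the 2 other classes. Of its 10 tested genes, 9 were past 2-fold higher against Rspo3 Cxcl14 fibroblasts (median 2.81) and all 10 against Pi16 Pcolce2 fibroblasts (median 4.19), and all 12 had UMIs in members. Acta2 was the most abundant of the list at 245 CPM. Without clusters led by other cell types the summed levels were 464, 144 and 114 CPM, and 7 of 8 and 6 of 8 tested genes were past 2-fold higher. Among all tested genes 5.09% and 8.60% were higher, and 443 of 9565 and 804 of 10129 without those clusters. Of the stellate list, 1 of 6 tested genes was higher against Rspo3 Cxcl14 fibroblasts and 6 of 6 against Pi16 Pcolce2 fibroblasts, with a summed level of 598, 395 and 246 CPM and with Gfap at 0. The part of mural or stellate cells in these values was not tested.

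The immune list summed to 71.7 CPM in members, led by Cd74, against 42.4 and 42.0 CPM, and to 28.3 CPM without the clusters led by other types. The endothelial list summed to 134 CPM, led by Plvap, against 128 and 58.3 CPM, and to 39.9 CPM without those clusters. The mesothelial list summed to 94.6 CPM, below the 169 and 186 CPM of the other classes, with Wt1 the most abundant and Lrrn4 at 0, and the Schwann list to 51.1 CPM, led by Ncam1, with Sox10 at 0. Red blood genes gave 4258 CPM in members and 3779 and 5367 CPM in the other classes, with Hbb-bs the most abundant. Without the clusters led by other types they gave 1584, 671 and 1187 CPM, and 3 of 4 tested genes were then past 2-fold higher against Rspo3 Cxcl14 fibroblasts (median 2.38) and 0 of 4 against Pi16 Pcolce2 fibroblasts (median 1.28). Among all genes tested without those clusters, 443 of 9565 and 804 of 10129 were higher. Acinar genes gave 1.51% of the UMIs of members, 1.51% of those of Rspo3 Cxcl14 fibroblasts and 1.65% of those of Pi16 Pcolce2 fibroblasts, with Ctrb1 the most abundant. Duct and endocrine genes summed to 220.5 CPM, led by Ins2, against 156 and 132 CPM. Their part in the comparisons was not tested. Scrublet marked 64 members (3.81%) as doublets, 58 of them among the 169 members in clusters led by other cell types, 2 in cluster 5 and 4 in cluster 3.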

How the data were processed

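The authors aligned the reads to mm10 with Cell Ranger 7.1.0, per the labels, and deposited unnormalized UMI counts for every gene in every barcode. Cell Ranger of this version counts intronic reads by default, so long genes such as Lsamp and Slit2 may be counted partly from unspliced RNA. Ambient RNA removal was not repeated here.

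Barcodes with over 800 and under 10000 UMIs and under 15% mitochondrial UMIs were kept (10129 cells, 31013600 UMIs). UMIs were pooled per class to CPM with exact 95% Poisson intervals, ratios with exact conditional 95% intervals and shares with exact Clopper-Pearson 95% intervals. Genes with at least 50 UMIs over both classes were compared, and 2-fold was the threshold of size. A count of 0 was set at 3 UMIs for the class. Named genes were, per comparison, the 10 higher and 10 lower genes past 2-fold with UMIs in at least 20 cells of the higher class, ranked by the interval bound nearest 1, leaving out mitochondrial, ribosomal protein and unnamed genes, plus the members of the gene lists. List genes under 50 UMIs were not counted as tested, and a few genes that the rule named are not reported here. The cells' rule, the lists and the tests were chosen with earlier results of these data known. The clusters led by other cell types were those where a marker list summed to at least 4-fold its level in the other gated cells, a rule set after seeing the clusters. Clustering used 2000 variable genes, 20 principal components, 20 neighbours and Leiden at a resolution of 0.5 (leidenalg 0.10.2, igraph 0.11.9, Python 3.11.15, numpy 2.4.6, scipy 1.17.1). Doublets called by Scrublet in scanpy 1.11.5 (544 of 10129, threshold 0.253, expected rate 0.08) were kept in the values unless stated. The ratio and interval functions were tested on simulated data. Coordinates are from GENCODE M21, and the Ensembl identifiers of the genes located were the same in the files.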

Additional observations from a re-analysis of the deposited data

Results flagged for a closer look

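Outside the UMI and mitochondrial limits, 68 barcodes met the rest of the rule and were used in no comparison. There were 61 among the 832 barcodes with 10000 UMIs or more, 5 among the 752 with 800 or fewer, and 2 among the 111 with 15% mitochondrial UMIs or more. The 61 had a median of 12703 UMIs, Eln at 2994 CPM, Mgp at 560.3 CPM and Mfap4 at 420 CPM, against 2069.7 CPM of Mgp and 1385 CPM of Mfap4 in members.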

How the results depend on the processing

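Lower and upper limits of 1500 and 100000 UMIs, a mitochondrial limit of 5% and removal of Scrublet doublets kept the share of members within its interval, as did a collagen minimum of 30. The share was 23.6% with a sum of at least 5, 23.1% with a factor of 4, 27.8% without members whose sum came from 1 gene (added after seeing the data) and 15.5% (880 cells) when the rule was applied after thinning to 800 UMIs. Of 90 gene counts under alternatives, 71 stayed within 1.5 times. After thinning, the higher genes numbered 189 against Rspo3 Cxcl14, 426 against Pi16 Pcolce2 and 232 against the other gated fibroblasts, and the lower 132 against the first and 277 against the last. With a minimum of 20 UMIs the higher genes were 958, 1451 and 781 and the lower against Rspo3 Cxcl14 fibroblasts 343, and with 200 UMIs the higher were 168, 365 and 224 and the lower 99, 305 and 254. Fewer or more genes are tested under these filters. In cells with Xist and no Y-linked UMIs 318 were higher than in the other gated fibroblasts, and in cells with Y-linked and no Xist UMIs 210, 459 and 284 were higher in the 3 comparisons. With a remaining sum of at least 5, the left-out ratios of Mfap4, Meox2 and Slit2 were 8.57, 10.98 and 4.55. At a clustering resolution of 1.0, 52.1% of members lay in the 2 clusters that held most, and members with Fmo2 at 15.4 and 18.8 CPM then lay in separate clusters. Of 776 named gene ratios under alternatives, 645 stayed within the 95% interval of the main ratio, 127 moved outside it (5 of the 776 came under 2-fold) and 4 reversed, all of Gcg against the other gated fibroblasts, at log2 ratios of 0.28 without doublets, 0.56 with the collagen minimum of 30, 0.28 in cells with Y-linked and no Xist UMIs and 0.41 without clusters led by other cell types. The cause was not tested where a filter did not set it. No paired analysis was possible because there is 1 library. Depth limits single cells: 339 members (20.2%) had a sum of 3 or 4.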

Other observations

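Of the members that could be sexed by UMIs of Xist or of Y-linked genes but not both, 66.9% (735 of 1099, 95% interval 64.0% to 69.7%) carried Xist, against 55.5% (231 of 416, 50.6% to 60.4%) of Rspo3 Cxcl14 fibroblasts and 56.5% (362 of 641, 52.5% to 60.4%) of Pi16 Pcolce2 fibroblasts. The share was 66.7% in members of cluster 3 and 67.5% in those of cluster 5, and it was 95.5% in Ptprc cells, so it differed between cell types of the same pool. Eln was at 4449 CPM in members with Xist and 1778 CPM in those with Y-linked UMIs, and its ratio to Rspo3 Cxcl14 fibroblasts was 26.5 and 9.32. Mgp was at 2135 and 2122 CPM in the same cells, with ratios of 3.72 and 3.62. How many mice each group of cells came from was not determined.

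Of 26 tested genes of the integrin and adhesion list, 8 were past 2-fold higher in members and 1 lower against Rspo3 Cxcl14 fibroblasts (median 0.902), and of 27, 13 were higher and 5 lower against Pi16 Pcolce2 fibroblasts (median 1.39). For this list and the next 2, the shares over all tested genes were 5.09% higher and 2.18% lower, and 8.60% and 4.60%, respectively. Ncam1, the neural cell adhesion molecule, was 13.5-fold (95% interval 5.69 to 42.2) higher than in Rspo3 Cxcl14 fibroblasts. It was at 15.3 CPM in members of cluster 3 and 54.1 CPM in those of cluster 5. Of 12 tested genes of the IGF list, 5 were higher and 3 lower against Pi16 Pcolce2 fibroblasts, with Igf1 2.82-fold (95% interval 2.59 to 3.07) higher, and 1 was higher and 2 lower against Rspo3 Cxcl14 fibroblasts, where Igf1 stood at a ratio of 0.837. Of 9 tested retinoid genes, 2 were higher and 1 lower against Rspo3 Cxcl14 fibroblasts, with Rbp4, the carrier of retinol, 2.48-fold (95% interval 1.75 to 3.61) higher. Against Pi16 Pcolce2 fibroblasts, 3 of the 9 retinoid genes tested were higher and 2 lower.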
